A study of Xenopus laevis with 20 samples.

Results

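Axin2, kremen2, sp5 and znf703 are genes that canonical Wnt signaling switches on and that feed back on the same pathway or act downstream of it, and they were followed here across the 5 tissue conditions of a *Xenopus laevis* gastrula experiment. The rule used gene names only: every probe set of the array whose gene symbol, leaving aside the homeolog suffix, was *axin2*, *kremen2*, *sp5*, *znf703* or *nkd1*. These symbols were chosen with earlier results of these data known. The counts, shares and ranks of members below therefore describe them and are not independent support. The rule found 7 probe sets for 6 genes and 4 of its 5 symbols, out of 15491 probe sets and 7531 gene symbols on the array, and *nkd1* was not analysed here because no probe set carried its name. *Xenopus laevis* is allotetraploid, and the suffixes L and S name the homeologs on the long and the short chromosome of a pair. One probe set each read *axin2.L*, *axin2.S*, *kremen2.S*, *sp5.S*, *znf703.L* and *znf703.S*, and 1 more, called *znf703.L/S* below, was assigned to both *znf703* homeologs and may share transcript signal with the other *znf703* probe sets.

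All embryos received *eGFP* mRNA as a tracer in the ventral marginal zone at the 4-cell stage, and the plasmids added to it were transcribed only once zygotic transcription had begun. The tissues were ventral explants (the ventral side of bisected gastrulae) with *eGFP* alone (**Ven**), with *noggin* plasmid (**Nog**), with *dkk-1* plasmid (**Dkk**) or with both (**Nog+Dkk**), and the dorsal explants of the same *eGFP* embryos that gave **Ven** (**Dor**). All explants were frozen directly after the embryos were cut and were not cultured. Noggin is a secreted antagonist of BMP and Dkk-1 a secreted antagonist of Wnt. Each array measured a pool of 10 explants of 1 clutch, with 2 arrays per condition at stage 10 (early gastrula, clutches 1 and 2) and 2 at stage 11.5 (late gastrula, clutches 3 and 4), so that stage and clutch cannot be told apart. Such explants hold all germ layers, only part of the cells took up plasmid, and in such bulk tissue fewer cells expressing a gene and less RNA per cell cannot be told apart.

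In canonical Wnt signaling, ligand binding to Frizzled and LRP6 stops the destruction of beta-catenin, which then enters the nucleus and activates target genes with TCF proteins. Axin2 is a scaffold of the beta-catenin destruction complex and a general transcriptional target of the pathway in vertebrates, so its induction dampens the signal that induced it. Kremen2 is a transmembrane receptor for Dkk proteins that, with Dkk-1, removes LRP6 from the cell surface. Sp5 is a zinc finger transcription factor of the Sp family and a Wnt target known from zebrafish, mouse and human cells. Znf703 is a zinc finger corepressor of the NET family. In the gastrula, zygotic Wnt signals act in the ventral and lateral marginal zone, and Wnt antagonists of the dorsal organizer restrict them. Whether any of these transcripts responded directly to beta-catenin was not measured.

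The injected genes served as a check on the labels. The *dkk1.S* probe set read a log2 intensity of 5.65 to 5.80 in **Ven** and 7.48 to 8.51 in **Dkk** at stage 10, and 5.16 to 6.08 in **Ven** and 7.32 to 8.11 in **Dkk** at stage 11.5, with **Nog+Dkk** at 7.69 to 7.93 and 7.74 to 8.09. *Nog.L* separated less well: it was 5.08 to 5.61 over the 4 **Nog** arrays, 4.56 to 5.36 over those of **Dkk**, 4.84 to 5.75 over those of **Nog+Dkk** and 4.35 to 5.15 over those of **Ven**. Within each clutch **Nog** and **Nog+Dkk** were above **Ven** and **Dkk**, and both genes were also high in **Dor**, their endogenous site. Array medians lay between 6.65 and 6.90 on the log2 scale, and with 2 arrays a group precision is limited throughout.

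*Axin2.L* was well measured at both stages. At stage 10 its 10 arrays spanned a log2 intensity of 7.77 to 8.21 (percentiles 66.3 to 74.2 of the probe sets on their array), with **Dkk** arrays at 7.93 and 7.77 (clutch 1, then clutch 2) and **Ven** arrays at 8.10 and 7.93. At stage 11.5, with clutch 3 named first and clutch 4 second throughout, it read 9.22 and 9.19 for **Ven** arrays, 9.07 and 9.30 for **Nog**, 8.01 and 8.54 for **Dkk**, 7.85 and 8.76 for **Nog+Dkk** and 8.83 and 8.46 for **Dor**. The 4 arrays with *dkk-1* plasmid therefore all lay below the 4 ventral arrays without it, and **Dor** lay between them in clutch 3 and below them in clutch 4.

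*Axin2.S*, its homeolog, had the same order of the ventral conditions in clutch 3, with **Dor** highest there, and another order in clutch 4. It read 9.39 and 9.16 for **Ven** arrays, 9.22 and 9.58 for **Nog**, 8.73 and 8.84 for **Dkk**, 8.39 and 9.17 for **Nog+Dkk** and 9.54 and 8.81 for **Dor** at stage 11.5. In clutch 4 its level in **Nog+Dkk** equalled that in **Ven** (a difference of 0.001), whereas in clutch 3 it was lower by 1.01, and it was the only member whose ventral arrays with and without *dkk-1* plasmid overlapped at this stage. At stage 10 it lay between 8.47 and 8.92.

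*Kremen2.S* was a dim member, and its probe set lay at percentiles 0.1 to 3 of its array at stage 10 (log2 intensity 2.57 to 3.15). At stage 11.5 it ranked higher, at percentiles 6.1 to 24.7, and read 5.08 and 4.52 for **Ven** arrays, 4.69 and 5.14 for **Nog**, 4.11 and 3.82 for **Dkk**, 3.76 and 3.76 for **Nog+Dkk** and 3.84 and 3.5 for **Dor**. All 6 arrays of **Nog+Dkk**, **Dkk** and **Dor** lay below all 4 of **Ven** and **Nog**. The deposited table held no detection calls, so no array was scored as present or absent.

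*Sp5.S* was also dim, at percentiles 4.4 to 12.8 at stage 11.5. It read 4.07 and 3.73 for **Ven** arrays, 3.87 and 4.19 for **Nog**, 3.52 and 3.6 for **Dkk**, 3.3 and 3.5 for **Nog+Dkk** and 3.68 and 3.65 for **Dor**. Its order of conditions was that of *kremen2.S* for **Ven** and **Nog** against the rest, over a narrower span of 0.89 against 1.64. At stage 10 its arrays lay within 3.3 to 3.56.

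**Figure D1:**
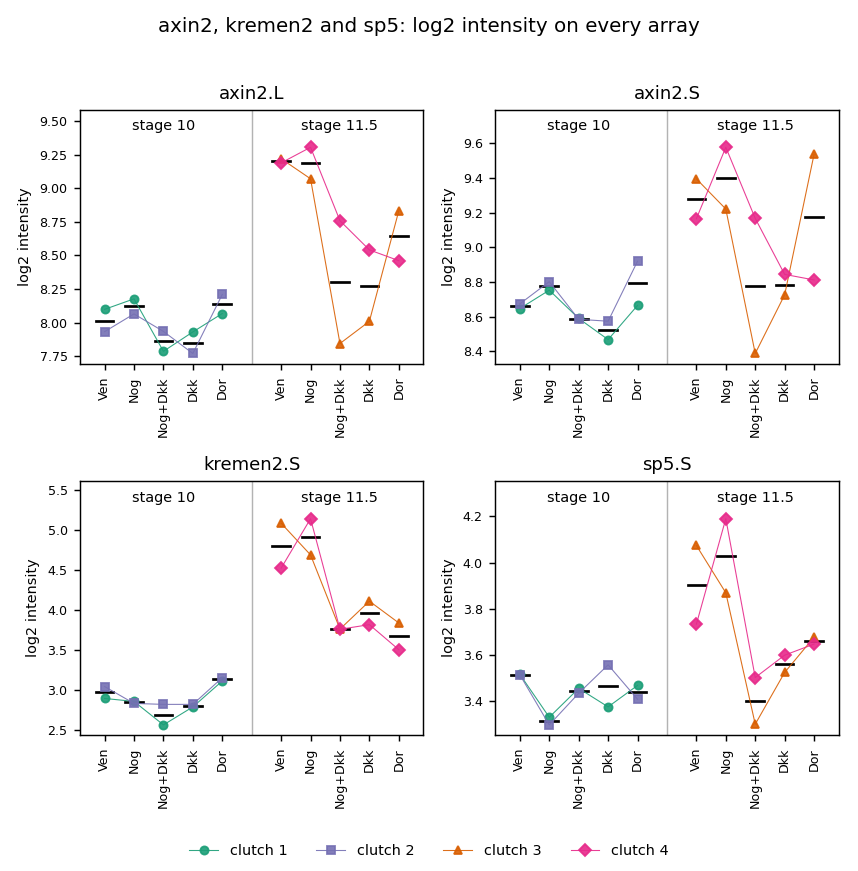
Log2 intensity (y axis) of *axin2.L*, *axin2.S*, *kremen2.S* and *sp5.S* on each of the 20 arrays (x axis: the 5 conditions at stage 10, left, and stage 11.5, right). Points joined by a line are arrays of 1 clutch, black bars are means of the 2 arrays, and the y axes do not start at 0. At stage 11.5 **Nog+Dkk** and **Dkk** lie below **Ven** and **Nog** in each panel except for *axin2.S* in clutch 4.

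The *znf703* probe sets lay between percentiles 46.8 and 82.4 of their arrays at stage 10 and between 65.7 and 93.3 at stage 11.5. At stage 11.5 *znf703.L* read 9.82 and 9.67 for **Ven** arrays, 9.27 and 9.72 for **Nog**, 8.78 and 8.77 for **Dkk**, 8.53 and 8.91 for **Nog+Dkk** and 9.13 and 8.77 for **Dor**. *Znf703.S* read 8.88 and 8.72 for **Ven** arrays, 8.72 and 8.91 for **Nog**, 8.08 and 8.03 for **Dkk**, 8.12 and 8.38 for **Nog+Dkk** and 8.28 and 7.91 for **Dor**. For both homeologs every array of **Nog+Dkk**, **Dkk** and **Dor** lay below every array of **Ven** and **Nog**.

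The shared probe set *znf703.L/S* read 8.71 and 8.81 for **Ven** arrays, 8.52 and 8.45 for **Nog**, 7.59 and 7.76 for **Dkk**, 7.59 and 8.11 for **Nog+Dkk** and 8.08 and 7.74 for **Dor**. It repeated the split of its relatives, and it was also the only member for which both **Nog** arrays lay below both **Ven** arrays, as they did for 16.9% of all probe sets. At stage 10 the spans over all conditions were narrow, with ranges of 8.12 to 8.62 for *znf703.L*, 7.12 to 7.45 for *znf703.S* and 6.62 to 7.0 for *znf703.L/S*.

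**Figure D2:**
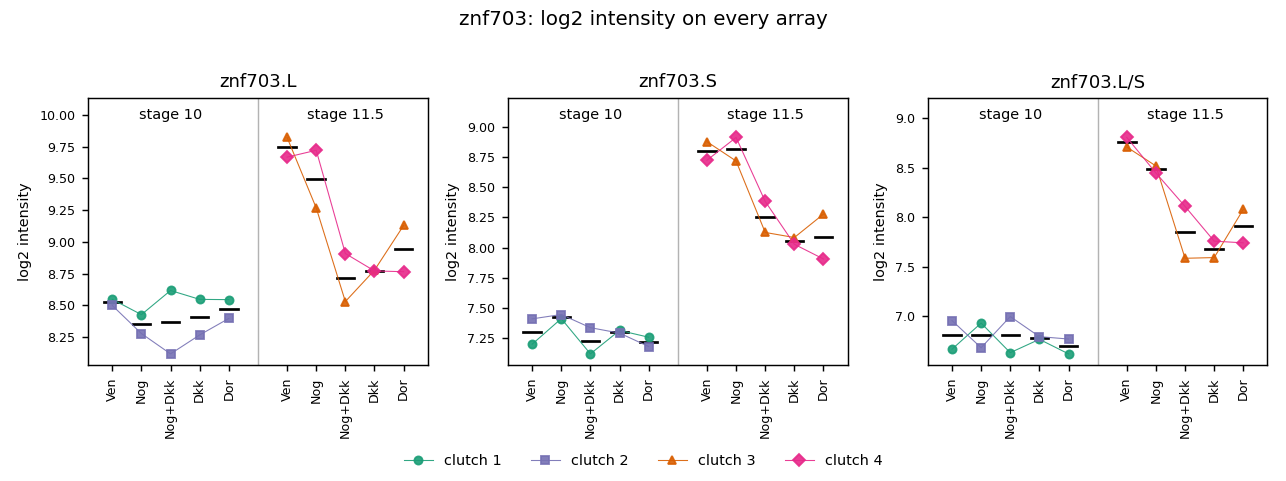
Log2 intensity (y axis) of the 3 *znf703* probe sets on each array (x axis: conditions at stage 10 and stage 11.5). Points joined by a line are arrays of 1 clutch, black bars are means of the 2 arrays, and the y axes do not start at 0. At stage 11.5 **Nog+Dkk**, **Dkk** and **Dor** lie below **Ven** and **Nog** for each probe set.

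The members stood higher at stage 11.5 than at stage 10 in each condition, except *sp5.S* in **Nog+Dkk** (a difference in mean log2 level of -0.04), and for each of them the difference was larger in **Ven** and **Nog** than in **Dkk**, **Nog+Dkk** and **Dor**. In **Ven** the mean log2 level was higher by 1.19 for *axin2.L*, 0.62 for *axin2.S*, 1.83 for *kremen2.S*, 0.39 for *sp5.S*, 1.22 for *znf703.L*, 1.5 for *znf703.S* and 1.95 for *znf703.L/S*, while the median of all probe sets moved by -0.03. In **Dkk** the same differences were 0.42, 0.26, 1.16, 0.10, 0.37, 0.75 and 0.90, and in **Dor** they were 0.51, 0.38, 0.54, 0.22, 0.48, 0.87 and 1.22. These are differences between clutches as well as between stages and were not tested.

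At stage 10 no member passed the test against **Ven** in any condition. Differences in log2 level from **Ven** ranged from -0.16 to 0.00 in **Dkk**, from -0.28 to 0.00 in **Nog+Dkk**, from -0.20 to 0.12 in **Nog** and from -0.12 to 0.16 in **Dor**. By limma, with Benjamini-Hochberg adjustment over all probe sets and an adjusted p below 0.1 as the threshold, 0 of 7 were called in each of these comparisons and 0 of 7 had an unadjusted p below 0.05, where 0.0452%, 0.271%, 0.129% and 0.684% of all probe sets were called in either direction. Rank products called 0 of 7 as well, against 0.129%, 0.342%, 0.161% and 0.968%, in the same order. At these shares 0 of 7 does not set the members apart from the rest of the array. *Kremen2.S* and *sp5.S* also lay at percentiles 0.1 to 3 and 4.2 to 6.4, where little fall could be measured. *Dkk1.S* already stood at its elevated level. The mean effect of *dkk-1* plasmid, which averages **Dkk** against **Ven** and **Nog+Dkk** against **Nog**, was between -0.21 and 0.04 and negative for 6 of 7 members (0 of 7 members and 0.0387% of all probe sets called). The 95% interval of that effect ran from -0.50 to 0.08 for *axin2.L* and, the widest, from -0.48 to 0.15 for *axin2.S*. The later effects of all members, given below, lay outside their stage 10 intervals. That leaves out the error of the later estimates and is no test between stages. The difference itself was not called by limma for *axin2.L* (adjusted p = 0.326), *axin2.S* (0.801), *sp5.S* (0.15) or *znf703.S* (0.143).

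At stage 11.5, with *dkk-1* plasmid alone, the *axin2.L*, *kremen2.S* and *znf703* signals were 1.68-fold to 2.12-fold lower than in **Ven**. **Ven** held no plasmid, so this comparison is also one of plasmid against none. *Axin2.L* was 1.90-fold lower (log2 change -0.93, SE 0.196, adjusted p = 0.0701), *kremen2.S* 1.79-fold lower (adjusted p = 0.0371), *znf703.L* 1.96-fold lower (adjusted p = 0.0122), *znf703.S* 1.68-fold lower (adjusted p = 0.0194) and *znf703.L/S* 2.12-fold lower (log2 change -1.08, SE 0.16, adjusted p = 0.00919). *Axin2.S* (log2 difference -0.50, adjusted p = 0.541) and *sp5.S* (-0.34, adjusted p = 0.443) did not pass the test. Thus 5 of 7 probe sets fell, against 0.252% of all probe sets, and the median over the members was -0.84 against -0.01 over all probe sets. Because the members were chosen with earlier results of these data known, these shares are a description only. Each of the 14 differences within a clutch was negative, from -1.21 to -0.55 in clutch 3 and from -1.05 to -0.13 in clutch 4. The calls were lost (0 of 7) without the clutch term, with stage 11.5 fitted alone or without either stage 10 clutch, none of which moved the log2 changes, and also with 50 added before the log or with the other clutch label of 2 stage 10 arrays. Rank products, which uses only the differences within a clutch, called the same 5, against 0.29% of all probe sets called lower by it.

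The same plasmid added to *noggin* plasmid gave the same direction on a separate set of arrays of the same clutches. In **Nog+Dkk** against **Nog**, *kremen2.S* was 2.23-fold lower (log2 change -1.15, SE 0.162, adjusted p = 0.002), *axin2.L* 1.85-fold lower (adjusted p = 0.0584), *znf703.L* 1.71-fold lower (adjusted p = 0.0368), *sp5.S* 1.55-fold lower (adjusted p = 0.0359) and *znf703.S* 1.48-fold lower (adjusted p = 0.0822). *Axin2.S* (-0.62, adjusted p = 0.447) and *znf703.L/S* (-0.64, adjusted p = 0.128) missed the threshold, and all 14 differences within a clutch were negative. That gave 5 of 7 lower against 0.207% of all probe sets, and *axin2.L*, *kremen2.S*, *znf703.L* and *znf703.S* (4 of the 5 in each comparison) were called in both. Here too the count dropped to 0 without the clutch term and to 1 with stage 11.5 fitted alone.

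Averaged over both comparisons, the effect of *dkk-1* plasmid had the smaller standard errors, and 6 of 7 members fell by it against 0.542% of all probe sets. The mean log2 effect was -0.997 for *kremen2.S* (SE 0.115, adjusted p = 1.11e-04), -0.91 for *axin2.L* (SE 0.138, adjusted p = 0.00167), -0.87 for *znf703.L* (SE 0.112, adjusted p = 3.71e-04), -0.86 for *znf703.L/S* (SE 0.113, adjusted p = 4.76e-04), -0.65 for *znf703.S* (SE 0.0931, adjusted p = 9.09e-04) and -0.49 for *sp5.S* (SE 0.0896, adjusted p = 0.00973). Among all probe sets of the array *kremen2.S* had the 11th lowest effect, *axin2.L* the 16th, *znf703.L* the 17th, *znf703.L/S* the 19th, *znf703.S* the 29th and *sp5.S* the 58th. *Axin2.S* (-0.56, SE 0.151, adjusted p = 0.147) was not called. For the 6 called members the 4 arrays with *dkk-1* plasmid did not overlap the 4 ventral arrays without it, as held for 0.93% of all probe sets in this direction. At stage 10 the same held for 2 of 7, *axin2.S* and *kremen2.S*, against 0.516% of all probe sets.

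The size of the effect differed between the clutches most for *axin2.L*, then *axin2.S* and *znf703.L/S*. Within clutch 3 it was -1.22 for *axin2.L* and -0.75 for *axin2.S*, and within clutch 4 it was -0.60 and -0.36. For *kremen2.S* the values were -0.95 and -1.04, for *znf703.L* -0.89 and -0.85, for *znf703.S* -0.69 and -0.61, for *sp5.S* -0.56 and -0.41, and for *znf703.L/S* -1.02 and -0.69. The difference between clutches has no replicate and was not tested. Set against stage 10, the later effect was called more negative for 3 of 7 members (*kremen2.S*, *znf703.L* and *znf703.L/S*) against 0.213% of all probe sets, a difference of stages and clutches alike. *Kremen2.S* lay at percentiles 0.1 to 3 of its arrays at stage 10, where little fall could be measured, which limits its stage difference.

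**Figure D3:**
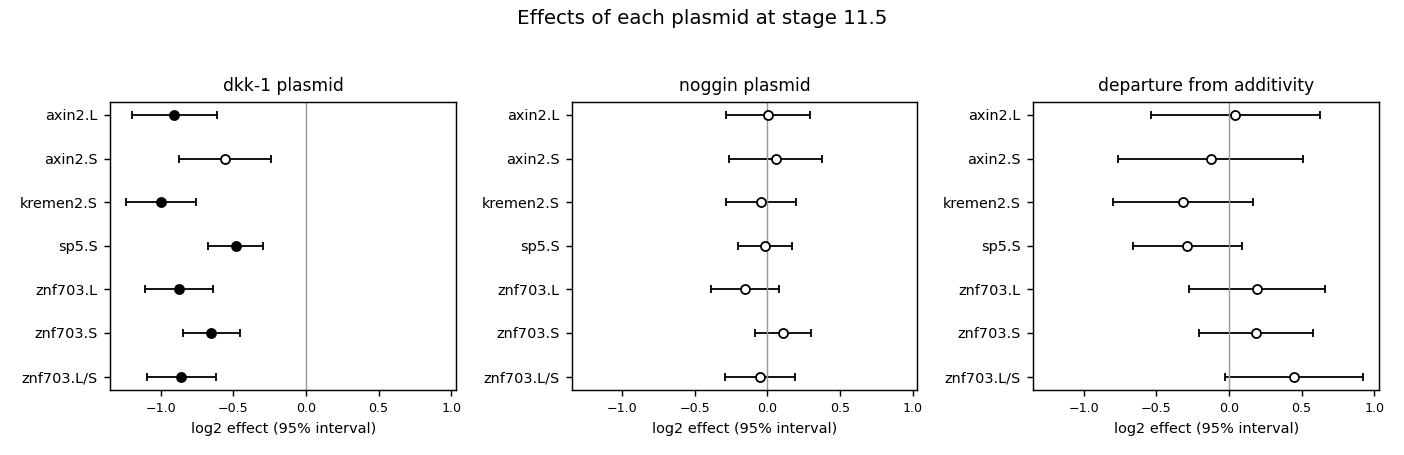
Log2 effect (x axis) of *dkk-1* plasmid, of *noggin* plasmid and of their departure from additivity on each member (y axis) at stage 11.5, from limma over all 20 arrays. Points are estimates, bars are 95% intervals, and filled points have an adjusted p below 0.1. The *dkk-1* effects lie between -0.997 and -0.485, and all *noggin* intervals include 0.

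With *noggin* plasmid alone no member passed the test. In **Nog** against **Ven** at stage 11.5, 8.57% of all probe sets were called in either direction, and 0 of 7 members were (0 at an unadjusted p below 0.05, and 0 by rank products, which called 0.465% of all probe sets). At these shares 0 of 7 does not set the members apart from the rest of the array. The log2 differences were -0.02 for *axin2.L* (95% interval -0.43 to 0.40), 0.12 for *axin2.S* (-0.33 to 0.57), 0.11 for *kremen2.S* (-0.23 to 0.45), 0.13 for *sp5.S* (-0.14 to 0.39), -0.25 for *znf703.L* (-0.58 to 0.08), 0.02 for *znf703.S* (-0.26 to 0.29) and -0.27 for *znf703.L/S* (-0.61 to 0.06). The arrays disagreed by clutch: all 7 members were lower in **Nog** than in **Ven** in clutch 3 (-0.55 to -0.15) and 6 of 7 were higher in clutch 4, where *znf703.L/S* was lower by 0.36. Accordingly 1 or 2 members were called when either clutch was left out, 2 without clutch 3 and 1 without clutch 4.

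The mean effect of *noggin* plasmid over the presence and absence of *dkk-1* plasmid lay between -0.15 and 0.11, with 0 of 7 members called, 0 at an unadjusted p below 0.05, and 7.98% of all probe sets called. That count too does not set the members apart from the array. Whether the plasmids differed from each other was tested directly by **Dkk** against **Nog**. There *kremen2.S* was 1.93-fold lower in **Dkk** (adjusted p = 0.017), *znf703.S* 1.69-fold (adjusted p = 0.017), *znf703.L/S* 1.75-fold (adjusted p = 0.0361), *axin2.L* 1.88-fold (adjusted p = 0.0609) and *znf703.L* 1.65-fold (adjusted p = 0.0654), which made 5 of 7 against 0.368% of all probe sets. This count was 0 without the clutch term or with stage 11.5 fitted alone, and it was 2 without clutch 4. No member departed from additivity of the plasmids by a called amount (0 of 7, 0 at an unadjusted p below 0.05, against 0.0129% of all probe sets), and the departure with the lowest p was 0.45 for *znf703.L/S* (95% interval -0.03 to 0.92, unadjusted p = 0.0646, by limma).

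In the head organizer condition **Nog+Dkk**, 6 of 7 members were lower than in **Ven**, against 1.94% of all probe sets. The log2 change was -1.04 for *kremen2.S* (SE 0.162, adjusted p = 0.00154), -1.03 for *znf703.L* (SE 0.158, adjusted p = 0.00152), -0.91 for *znf703.L/S* (adjusted p = 0.00412), -0.90 for *axin2.L* (adjusted p = 0.0182), -0.55 for *znf703.S* (adjusted p = 0.0332) and -0.50 for *sp5.S* (adjusted p = 0.0435). *Axin2.S* differed by -0.50 (adjusted p = 0.241). This comparison shares its **Ven** arrays with **Dkk** against **Ven**. Its median within clutch 3 was -1.12 and within clutch 4 was -0.43, and 3 of 7 members (*kremen2.S*, *znf703.L* and *znf703.L/S*) were called with stage 11.5 fitted alone, by rank products (0.226% of all probe sets called lower), or without clutch 1, 2 or 3.

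**Figure D4:**
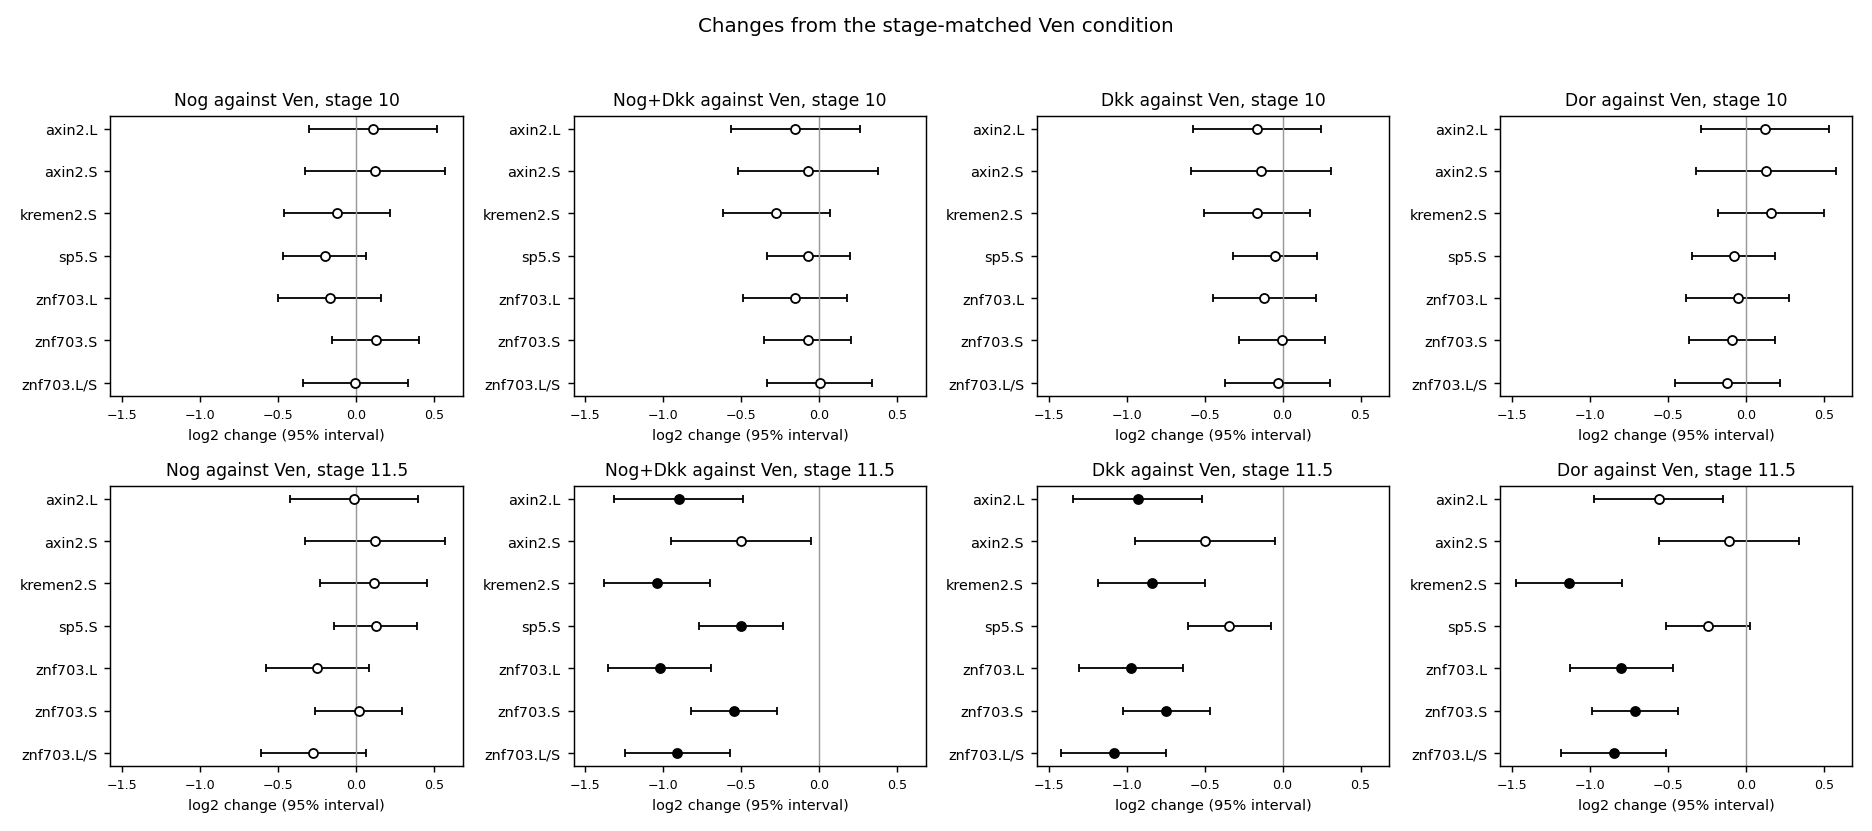
Log2 change from the stage-matched **Ven** (x axis) of each member (y axis) in **Nog**, **Nog+Dkk**, **Dkk** and **Dor** at stage 10 (top) and stage 11.5 (bottom). Points are limma estimates from 2 arrays a group, bars are 95% intervals, and filled points have an adjusted p below 0.1. No point is filled at stage 10 or in **Nog**, and 6, 5 and 4 are filled in **Nog+Dkk**, **Dkk** and **Dor** at stage 11.5.

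Endogenous dorsal tissue also held less of these transcripts than ventral tissue by late gastrula. *Kremen2.S* was 2.19-fold lower in **Dor** than in **Ven** (log2 change -1.13, SE 0.162, adjusted p = 3.39e-04), *znf703.L/S* 1.80-fold (adjusted p = 0.0056), *znf703.L* 1.74-fold (adjusted p = 0.00804) and *znf703.S* 1.63-fold (adjusted p = 0.005). *Axin2.L* (-0.56, adjusted p = 0.222), *sp5.S* (-0.24, adjusted p = 0.525) and *axin2.S* (-0.11, adjusted p = 0.926) were not called, and *axin2.S* was higher in **Dor** in clutch 3 by 0.14 and lower in clutch 4 by 0.35. In all 4 of 7 fell, against 1.34% of all probe sets, and the count was 2 without the clutch term. At stage 10 the same comparison gave 0.12 for *axin2.L*, 0.16 for *kremen2.S* and -0.05 for *znf703.L*, none of them called, and the stage difference was called for 1 of 7, *kremen2.S*, against 0.232% of all probe sets. The *kremen2.S* probe set lay at percentiles 0.1 to 3 of its arrays at stage 10, where little fall could be measured.

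Set directly against **Dor**, the levels with *dkk-1* plasmid were not distinguished from those of dorsal tissue. Of 7 members 0 were called in **Dkk** against **Dor** and 0 in **Nog+Dkk** against **Dor**, with 0 at an unadjusted p below 0.05 in each, where 1.58% and 0.536% of all probe sets were called in either direction. Rank products called 0 of 7 in each, against 0.891% and 0.316%. At these shares 0 of 7 does not set the members apart from the rest of the array, and it does not show that the levels were equal. The intervals were wide: *kremen2.S* differed by 0.29 in **Dkk** (95% interval -0.05 to 0.63), *axin2.L* by -0.37 (-0.78 to 0.04) and *axin2.S* by -0.39 (-0.84 to 0.06). The clutches went apart here too, since all 7 members were lower in **Nog+Dkk** than in **Dor** in clutch 3 and 6 of 7 were higher in clutch 4, and without clutch 4 *axin2.L* and *axin2.S* (2 of 7) were called lower in each comparison. In **Nog** against **Dor** 4 of 7 were higher, *kremen2.S* by 1.24 (adjusted p = 1.41e-04), *znf703.S* by 0.72 (adjusted p = 0.00445), *znf703.L/S* by 0.57 (adjusted p = 0.0552) and *znf703.L* by 0.55 (adjusted p = 0.0624), against 2.89% of all probe sets, and 7 were higher without clutch 3 and 1 without clutch 4.

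Looking at the order of conditions within a clutch, **Ven** was the highest for 6 of 7 members in clutch 3 and **Nog** for 6 of 7 in clutch 4. The lowest condition was **Nog+Dkk** for 6 of 7 in clutch 3 and **Dor** for 6 of 7 in clutch 4. **Dkk** against **Ven**, **Nog+Dkk** against **Nog** and **Dkk** against **Nog** each kept their direction in both clutches for every member.

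The members varied together across the late arrays. After the mean of its clutch was taken off each array, the 21 pairs of members had a Pearson correlation of 0.63 to 0.94 (median 0.88) over the 10 arrays of stage 11.5, and of -0.49 to 0.84 (median 0.01) over the 10 arrays of stage 10. The *axin2* homeologs stood out at stage 10 with 0.84, beside 0.91 at stage 11.5, and *znf703.L* and *znf703.S* had -0.30 and 0.93. These points share arrays, clutches and conditions, the *znf703* probe sets may share transcripts, and the values describe these arrays only.

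By the same measure over the 20 arrays, and among probe sets with exactly 1 gene symbol, those of other genes most like the members belonged to *gbx2.2.L* and *fzd10.S*. *Gbx2.2.L*, a homeobox gene of posterior neural tissue, was among the closest 3 for *axin2.L* (0.91), *axin2.S* (0.85), *znf703.L* (0.92), *znf703.S* (0.87) and *znf703.L/S* (0.93). *Fzd10.S*, a Frizzled receptor, was among the closest 3 for *kremen2.S* (0.89), *sp5.S* (0.84), *znf703.L* (0.92), *znf703.S* (0.91) and *znf703.L/S* (0.88). Other genes on these short lists were *azin2.S* for *axin2.L*, *bpnt1.L* for *axin2.S*, *vdac1.S* for *kremen2.S*, *hoxc6.S* for *sp5.S*, and XB5872372.S for *sp5.S* and *znf703.L*. At stage 11.5 the *gbx2.2.L* probe set with the larger change was lower by 1.68 in **Dkk** than in **Ven** (log2 change -1.68, adjusted p = 0.00919) and the *fzd10.S* one by 1.09 (log2 change -1.09, adjusted p = 0.0359).

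Few other genes of the Wnt pathway passed the test of the mean effect of *dkk-1* plasmid. Of 10 probe sets for further feedback and inhibitor genes, 0 fell by the mean effect of *dkk-1* plasmid at stage 11.5 and 1 rose, *dkk1.S* itself (log2 effect 2.31), where 0.542% of all probe sets fell and 0.413% rose. At that share 0 falls does not set the list apart from the rest of the array. Its median was -0.04 against -0.01 over all probe sets. *Znrf3.S*, a ubiquitin ligase that removes Frizzled receptors (-0.37, adjusted p = 0.217), *lef1* (-0.27, adjusted p = 0.535), *tcf7.S* (-0.255, adjusted p = 0.539), *kremen1.S* (-0.20, adjusted p = 0.809) and *axin1.L* (0.15, adjusted p = 0.796) did not pass the test. All of these but *axin1.L* lay below the 5th percentile of all probe sets (-0.17). Of 46 probe sets for core components 0 fell and 2 rose, both of the repressor *tcf7l1* (*tcf7l1.S* 0.54, adjusted p = 0.00137, and *tcf7l1.L* 0.46, adjusted p = 0.00316). None of the 6 probe sets for early dorsal targets of maternal Wnt signaling, such as *siamois*, was called by this effect. More were called in **Nog+Dkk** against **Ven** at stage 11.5, where 712 of all probe sets were called in either direction. There *znrf3.S* (log2 change -0.51, adjusted p = 0.0802 by limma) and *lrp5.L* (-0.42, adjusted p = 0.0485) were lower. All other core probe sets called there were higher. The largest rises were those of *tcf7l1.S* (0.71, adjusted p = 0.00206), *gsk3a.L* (0.69, adjusted p = 0.0511) and *tcf7l1.L* (0.61, adjusted p = 0.00382). The core component *ctnnb1.S* was higher in **Nog+Dkk** (0.45, adjusted p = 0.02), as it was in **Nog** (0.42, adjusted p = 0.0211). The ligand gene *wnt8a.L* differed by -0.03 between **Dkk** and **Ven** (adjusted p = 0.994) and was lower by 1.06 in **Dor** (log2 change -1.06, adjusted p = 1.11e-04). At stage 10 *wnt8a.L* was also lower in **Dor** than in **Ven** (log2 change -0.86, adjusted p = 0.00233 by limma), and no member was called there. Whether the level of *wnt8a.L* had a part in the changes of the members was not tested.

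Among the Wnt gene groups, posterior genes controlled by zygotic Wnt signaling had the most falls. Of their 20 probe sets 7 fell by the mean effect of *dkk-1* plasmid at stage 11.5 and 0 rose. Over all probe sets 0.542% fell and 0.413% rose. The median of the 20 was -0.41, against -0.01 over all probe sets. The largest falls were those of *gbx2.2.L* (log2 effect -1.46, adjusted p = 2.56e-04), *pax3.S* (-1.09, adjusted p = 0.00356) and *msx1.L* (-0.999, adjusted p = 0.00281), genes of posterior neural plate, neural plate border and ventrolateral tissue. No *pax3.L* probe set was called by this effect, with log2 effects of -0.85, -0.11, 0.09 and 0.13. That at 0.13 was called higher in **Nog+Dkk** than in **Ven** at stage 11.5 (log2 change 0.62, adjusted p = 0.00971 by limma). The caudal genes *cdx4.L* (-0.64, adjusted p = 0.222) and *cdx1.S* (-0.42, adjusted p = 0.417) did not pass the test. The study counts *msx1* among BMP targets. *Msx1.L* was also called lower by the mean effect of *noggin* plasmid at stage 11.5 (log2 effect -0.52, adjusted p = 0.0778 by limma). This list too was chosen with earlier results of these data known, so its counts are a description.

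**Figure D5:**
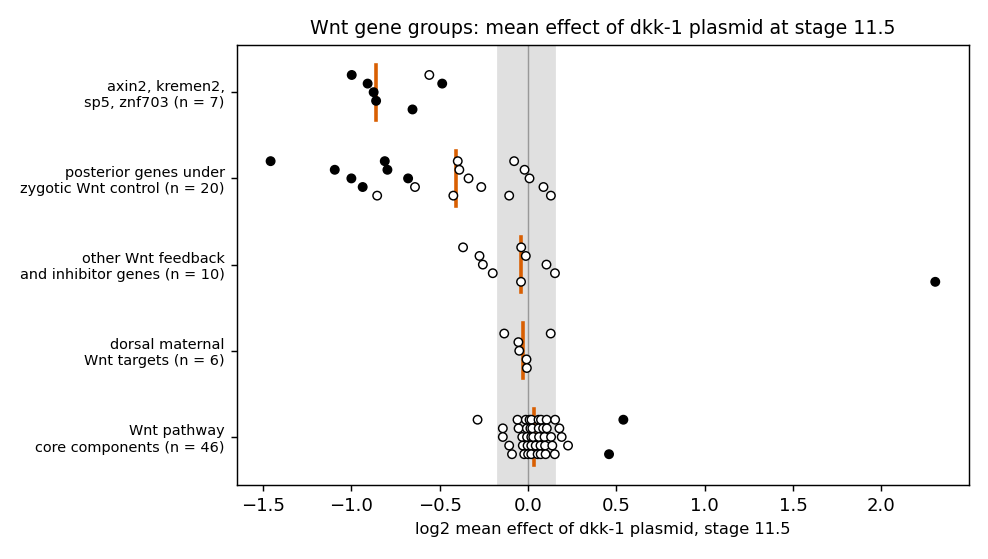
Mean log2 effect of *dkk-1* plasmid at stage 11.5 (x axis) for each probe set of the members and of 4 groups of Wnt genes (y axis). Filled points have an adjusted p below 0.1, orange bars are group medians, and the grey band holds the 5th to 95th percentile of all probe sets (-0.17 to 0.15). The members, with a median of -0.86, all lie to the left of the band, and the filled point at the far right is *dkk1.S*.

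Some marker lists, those of the organizer, ventral tissue, neural plate and p53 response, also held called probe sets. None of 16 probe sets for epidermis, 15 for endoderm and 7 for germ plasm was called by the mean effect of *dkk-1* plasmid at stage 11.5. For the counts below, the mean effect of *dkk-1* plasmid at stage 11.5 had 0.413% of all probe sets called higher and 0.542% called lower. At stage 11.5 the summed intensity of 18 organizer probe sets was 2900 to 4120 in **Ven**, 3840 to 4250 in **Nog**, 4310 to 5160 in **Dkk**, 5630 to 6910 in **Nog+Dkk** and 9210 to 11200 in **Dor**, and by the mean effect of *dkk-1* plasmid 9 of the 18 rose and 0 fell. That of 19 ventral probe sets was 13600 to 15200 in **Ven**, 10500 to 11100 in **Nog**, 12600 to 13400 in **Dkk**, 9420 to 10200 in **Nog+Dkk** and 8080 to 9610 in **Dor**, and 3 of the 19 fell by the same effect. The ventral sum, in which bright probe sets weigh most, was lower in **Nog** than in **Dkk**. The 3 that fell were probe sets of *msx2.L* (log2 effect -0.98), *evx1.L* (-0.65) and *ventx1.1.L* (-0.61). Another probe set of *msx2.L* (-0.08) and of *ventx1.1.L* (-0.02) was not called. The summed intensity of 15 neural plate probe sets was 6590 to 7260 in **Ven**, 6820 to 8450 in **Nog**, 7050 to 7400 in **Dkk**, 8980 to 9320 in **Nog+Dkk** and 8920 to 10100 in **Dor**. Of the 15, 2, both of *sox2.L*, rose by the mean effect of *dkk-1* plasmid (adjusted p = 0.0527 and 0.0102). The sum of 8 probe sets for p53 response genes was 1830 to 1970 in **Ven**, 1880 to 2290 in **Nog**, 2290 to 2350 in **Dkk**, 2950 to 3050 in **Nog+Dkk** and 1840 to 2250 in **Dor**, with 4 of 8 higher by the *dkk-1* effect. The largest rise was that of *ccng1.L* (log2 effect 0.72). At stage 10 limma called *ccng1.L* higher than in **Ven** in **Dkk** (log2 change 1.36), **Nog** (1.56) and **Nog+Dkk** (1.84). *Plk2.S* was called in the same 3 conditions (0.85, 1.00 and 1.04). **Ven** and **Dor** held no plasmid, so plasmid conditions against **Ven** also compare plasmid with none. No marker read 0, the lowest intensity on any array being 4.67, and the part these markers had in the changes of the members was not tested.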

How the data were processed

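RNA from pools of 10 explants was hybridized by the authors to 20 Affymetrix *Xenopus laevis* arrays, 1 array per sample, and processed with RMA (background correction, quantile normalization and summary per probe set). No version of RMA was stated in the sources used here. Per probe set, the deposited intensity values of the authors (15611 probe sets per array) were on a linear scale (4.67 to 16895.2, array medians 99.4 to 118.1) although the methods speak of log2 values, and they were log2 transformed here. RMA compresses differences between dim probe sets, so the changes of the dim members *kremen2.S* and *sp5.S* may be understated.

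After 120 control probe sets were left out, 15491 were tested. Their symbols came from the platform annotation: 9304 had 1 symbol, 195 several and 5992 none. Samples were grouped by the condition and stage in their titles. The clutch in the title was used for 2 stage 10 arrays (**Nog+Dkk** and **Dkk**) whose characteristics name another clutch. One linear model over 10 groups, with the clutch as a block, was fitted with limma 3.58.1 in R 4.3.3 (8 residual degrees of freedom, 9.82 prior degrees of freedom), with Benjamini-Hochberg adjustment within each comparison and a threshold of 0.1. The labels give the replicate number as the clutch, so arrays of 1 number come from the same clutch. Deviations of same-clutch arrays from their group means correlated by 0.681 to 0.841 at stage 10 and 0.485 to 0.801 at stage 11.5 (10 pairs each). The fit takes out the mean level of each clutch. The p-values therefore rest on how far the differences between conditions disagreed from clutch to clutch, with 2 arrays a group. That residual spread was pooled over the groups of both stages, so tests at stage 11.5 also draw on the stage 10 arrays. The model and the rank products test, which the methods name, were tested on simulated data. Alternatives were no block, each stage alone, a threshold of 0.05, a trended robust variance prior, 2 other normalizations, an offset of 50, a filter at the 25th percentile of mean intensity, both treatments of the conflicting labels, each clutch left out and rank products.

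Members were all probe sets with the 5 symbols. From the lists of other genes some called probe sets were named, not always those with the largest change. A few that were not called were named for their role. Members and lists were chosen with earlier results of these data known. The figures were drawn with matplotlib 3.10.9.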

Additional observations from a re-analysis of the deposited data

Results flagged for a closer look

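For 3 members the mean effect of *dkk-1* plasmid was more negative at stage 11.5 than at stage 10 by limma's test of the difference itself. The difference in log2 effect was -0.839 for *kremen2.S* (SE 0.162), -0.822 for *znf703.L* (SE 0.158) and -0.847 for *znf703.L/S* (SE 0.16), each with an adjusted p of 0.0424. *Axin2.L* differed by -0.695 without passing (adjusted p = 0.326). All 3 lost the call without the clutch block (adjusted p = 1), without either stage 10 clutch (adjusted p = 0.345 to 1), with the clutch from the characteristics (0.679 to 0.814), without the 2 arrays of conflicting labels (0.211 to 0.533) and with an offset of 50 (0.222 to 0.342). *Znf703.L/S* also lost it without clutch 3 (adjusted p = 0.136), and *kremen2.S* had an adjusted p of 0.173 after cyclic loess and of 0.12 after quantile normalization. The difference between **Dor** and **Ven** also changed for *kremen2.S*, by -1.297 from stage 10 to stage 11.5 (SE 0.229, adjusted p = 0.0136 by limma). At stage 10 *kremen2.S* lay at percentiles 0.1 to 3 of its arrays. Little fall could be measured there, in **Dor** or with *dkk-1* plasmid. Each stage came from its own clutches, so none of these 4 differences separates the stage from the clutch.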

How the results depend on the processing

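Of 1929 member changes over the alternatives 1740 kept their side of the threshold, 167 lost and 22 gained a call, and 67 that had no call changed sign. No called change turned its direction, but most alternatives could not turn one. The 0.05 threshold, the variance prior, the dim filter, rank products, no block and each stage alone keep the same log2 changes. At stage 11.5 so do leaving out clutch 1 or 2 and both treatments of the conflicting labels. Only the other normalizations, the offset and leaving out clutch 3 or 4 could move the stage 11.5 changes. At stage 10 the count of members called stayed at 0 throughout. At stage 11.5 the count for the mean effect of *dkk-1* plasmid (6 of 7) stayed between 4 and 7, and 4 passed without the clutch block. Without the block the counts were 0 for **Dkk** against **Ven** (5 with it), **Nog+Dkk** against **Ven** (6), **Nog+Dkk** against **Nog** (5) and **Dkk** against **Nog** (5), and 2 for **Dor** against **Ven** (4) and **Nog** against **Dor** (4). In this order, leaving out 1 clutch at a time gave 0 to 6, 3 to 7, 1 to 5, 0 to 6, 3 to 5 and 1 to 7. Leaving out 1 clutch gave 0 to 2 for **Nog** against **Ven** and for **Nog+Dkk** and **Dkk** against **Dor**, and 0 to 1 for the mean effect of *noggin* plasmid, all with 0 otherwise; the stage that loses a clutch keeps 1 array a group, assumed to vary like the other stage. With stage 11.5 fitted alone, and likewise with the clutch from the characteristics, the counts were 0 for **Dkk** against **Ven** and against **Nog**, 3 for **Nog+Dkk** against **Ven**, 1 for **Nog+Dkk** against **Nog** and 2 for **Nog** against **Dor**. An offset of 50 gave 0 for **Dkk** against **Ven** and **Nog+Dkk** against **Nog** and 2 for **Dkk** against **Nog**. The threshold of 0.05 gave 3 for **Nog+Dkk** against **Nog** and **Dkk** against **Nog** and 2 for **Nog** against **Dor**. Leaving out the arrays with conflicting labels gave 3 for **Nog+Dkk** against **Nog** and **Dkk** against **Nog**, and the filter on dim probe sets, which removes *kremen2.S* and *sp5.S*, gave 3 for the former. Rank products gave 3 for **Nog+Dkk** against **Ven** and 1 for **Nog** against **Dor**. The cause of the other differences was not tested. Over all probe sets the count for **Dkk** against **Ven** was 69 (0 to 142 over the alternatives), for **Nog+Dkk** against **Ven** 712 (12 to 1251), for **Nog** against **Ven** 1328 (0 to 1472), for **Dor** against **Ven** 440 (65 to 479) and for the mean effect of *dkk-1* plasmid 148 (17 to 169). The 2 arrays a group and the low signal of *kremen2.S* and *sp5.S* limit these values.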

Other observations

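One probe set without a gene symbol moved with the members, and it was singled out after its values were seen. The study's annotation describes it as weakly similar to human Axin 2. At stage 11.5 (clutch 3, then clutch 4) it had log2 intensities of 8.30 and 8.81 for **Ven** arrays, 8.03 and 9.22 for **Nog**, 6.56 and 7.30 for **Dkk**, 6.37 and 8.01 for **Nog+Dkk** and 7.65 and 7.71 for **Dor**, and at stage 10 it lay between 5.68 and 5.95. Its mean effect of *dkk-1* plasmid at stage 11.5 was -1.53 (SE 0.158, adjusted p = 3.61e-05 by limma), number 1 of the 15491 probe sets from the lowest. It was lower than in **Ven** by a log2 change of -1.62 in **Dkk** (adjusted p = 0.00865), -1.37 in **Nog+Dkk** (adjusted p = 0.00227) and -0.88 in **Dor** (adjusted p = 0.0492), and differed by 0.07 in **Nog** (adjusted p = 0.909). With the clutch means taken off, its correlation with the members over the 10 arrays of stage 11.5 was 0.84 to 0.967. Over the 20 arrays it was 0.928 with *znf703.L* and 0.857 with *sp5.S*, above the closest named probe set in each (0.923 and 0.846). For the other members it lay below the closest named probe set. It was 0.909 against 0.912 for *axin2.L*, 0.824 against 0.848 for *axin2.S* and 0.801 against 0.89 for *kremen2.S*. For *znf703.S* it was 0.887 against 0.911, and for *znf703.L/S* 0.901 against 0.929. These values are a description over arrays that share clutches and conditions.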
